A study of Mus musculus with 10 samples.

Results

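The RAS-like GTPase genes described here are Rerg, its paralog Rergl, the RAL exchange factor genes Rgl1, Rgl2 and Rgl3, and the GTPase genes Rasd1, Rasd2, Rasl11a, Rasl11b and Rasl12. These 10 genes were taken by name from the 29268 genes of the table. Rerg and Rgl3 were chosen by their difference between the 2 groups in these same mice, so their difference is given as a description with no test. The other 8 were taken as their relatives by name. Uterine RNA was sequenced from 5 HSD17B1TG and 5 WT females, aged 4 months, and each mouse gave 1 library. HSD17B1 turns the weak estrogen estrone into estradiol. The HSD17B1TG line holds the human enzyme's cDNA as a heterozygous transgene on the FVB/N background, and WT mice lack it. Its promoter, from chicken beta actin with an enhancer of CMV, is active throughout the body, so the transgene is not limited to the uterus or to 1 cell type. The estrous cycle is a further difference, since acyclic HSD17B1TG females are set against cycling controls. The controls were not matched for cycle phase, which the study's methods give as random, and the stage of each sequenced WT mouse is not given in the sources used here, so genotype and cycling cannot be told apart. The comparison asks which uterine transcripts differ before adenomyosis-like lesions arise.

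RAS-like GTPases are molecular switches that are active with GTP and inactive with GDP. RERG was named as a RAS-like, estrogen-regulated growth inhibitor, and its RNA is known from estrogen receptor-positive breast tumours. It lacks the lipid attachment signal with which classical RAS proteins anchor in membranes. The RGL proteins bind active RAS and load the GTPases RALA and RALB with GTP, which links RAS to vesicle traffic and cell shape.

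Library totals ranged from 14817228 to 23271988 counts per mouse. The HSD17B1TG mice are called TG1, TG2 and so on up to TG5, and likewise WT1 up to WT5, numbered in submission order. The tissue label was checked against marker genes: in FPKM, the fragments of a gene scaled by its length and by library size, the markers of smooth muscle, epithelium and stroma summed to at least 517, 577 and 876 in every library, and 8 oviduct and ciliated cell markers summed to 12.7 to 20.5 FPKM. Sums of marker FPKM cover every listed gene found in the table, tested or not. The reads were mapped to mouse genes, so the human transgene itself was not measured here. TG1 stood apart from the other HSD17B1TG mice, with the lowest summed epithelium markers of its group (1033 against 2651 to 4512 FPKM) and the highest stroma markers (3094 against 876 to 1738 FPKM).

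Rerg was higher in every HSD17B1TG uterus than in any WT uterus. Rerg (ENSMUSG00000030222, GRCm38, minus strand, chr6:137054825-137170497) measured 8.09, 7.94, 4.59, 6.95 and 10.5 FPKM in TG1 to TG5. In WT1 to WT5 it measured 2.31, 2.14, 0.727, 2.73 and 2.15 FPKM. The groups did not overlap, with the lowest HSD17B1TG mouse above the highest WT mouse, and WT3 stood below the other WT mice. The means were 7.62 ± 2.14 FPKM in HSD17B1TG and 2.01 ± 0.757 FPKM in WT (SD, n = 5 each). On edgeR's log2 scale the difference was 1.92 with a standard error of 0.34, a 3.78-fold higher level. The counts behind it were 236 to 447 per HSD17B1TG library and 32 to 155 per WT library. With 1 mouse left out in turn, the log2 fold change ran from 1.68 to 2.05. The short gene 4930480K02Rik lies within Rerg on the same strand and touches no annotated Rerg exon.

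Rergl (ENSMUSG00000092164, minus strand, chr6:139492973-139501976) encodes the closest relative of RERG in the set and lies on the same chromosome, with its end 2322476 bases from the start of Rerg. Its counts were few, with 52, 17, 6, 47 and 3 in TG1 to TG5 and 8, 0, 0, 17 and 0 in WT1 to WT5. These correspond to 2.91, 1.02, 0.333, 3.04 and 0.201 FPKM in HSD17B1TG. TG1, TG2 and TG4 lay above every WT mouse and TG3 and TG5 did not. Rergl was removed by the low-count filter, so no fold change or test is given. In the libraries of WT2, WT3 and WT5 a gene with 0 counts can still be present at up to 3 counts, which is 0.184, 0.202 and 0.156 CPM (counts scaled to a common library size), for counting error only.

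Rgl3 was higher in most HSD17B1TG uteri. Rgl3 (ENSMUSG00000040146, minus strand, chr9:21968711-21989446) measured 21.4, 55.8, 45.3, 42.4 and 64.6 FPKM in TG1 to TG5, and 21.4, 15.7, 12.3, 27.4 and 19.3 FPKM in WT1 to WT5. TG2 to TG5 lay above every WT mouse, whereas TG1 lay within the WT range. The means were 45.9 ± 16.3 FPKM in HSD17B1TG and 19.2 ± 5.72 FPKM in WT (SD, n = 5 each), and the log2 fold change was 1.26 with a standard error of 0.29, or 2.39-fold. With 1 mouse left out in turn, the log2 fold change ran from 1.10 to 1.44, and the highest value was that without TG1.

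The paralogs Rgl2 and Rgl1 did not pass the test. Rgl2 (ENSMUSG00000041354, plus strand, chr17:33929543-33937687) was the most even of the 10 genes, with a coefficient of variation of 6.36% in HSD17B1TG and 10.6% in WT. It measured 20.3, 17.6, 17.5, 19.1 and 18.4 FPKM in TG1 to TG5 and 15.1, 15.9, 17.1, 12.8 and 14.4 FPKM in WT1 to WT5. The groups did not overlap in FPKM, by the small gap between 17.5 and 17.1, but did overlap in TMM-scaled CPM. Its log2 fold change was 0.30 with a standard error of 0.11 (edgeR adjusted p = 0.121). Rgl1 (ENSMUSG00000026482, minus strand, chr1:152516760-152766351) measured 7.91, 3.21, 2.43, 6.02 and 3.71 FPKM in TG1 to TG5 and 6.39, 3.39, 5.37, 4.70 and 5.18 FPKM in WT1 to WT5. TG1 held the highest and TG3 the lowest value of all 10 mice, so the HSD17B1TG range enclosed the WT range. The log2 fold change of Rgl1 was -0.11 with a standard error of 0.31 (edgeR adjusted p = 0.858), and it turned to 0.03 without TG3. Apobec4 on the opposite strand and the models Gm15479, Gm7278 and Gm28792 overlap Rgl1 without touching its exons.

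The summed level of the RAL exchange factor genes of the RGL type was higher in HSD17B1TG. Rgl1, Rgl2 and Rgl3 together measured 49.7 to 86.7 FPKM in HSD17B1TG and 34.7 to 44.9 FPKM in WT, with no overlap. Rgl3 alone made up 64.6% ± 12.8 of this sum in HSD17B1TG (43.1% to 74.5%) and 48.2% ± 9.24 in WT (35.5% to 61.0%; SD, n = 5 each). The share overlapped between the groups through TG1 alone, and the other HSD17B1TG mice lay at 62.8% or higher, above every WT mouse. Because Rgl3 was chosen for its difference, the sum and the share hold that choice and were not tested.

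Rasd1 encodes a GTPase first found as induced by dexamethasone, and Rasd2 encodes its paralog, known as Rhes in the striatum. Rasd1 (ENSMUSG00000049892, minus strand, chr11:59963181-59964944) measured 34.2, 70.7, 44.4, 12.3 and 51.1 FPKM in TG1 to TG5 and 37.9, 11.6, 12.9, 33.9 and 20.4 FPKM in WT1 to WT5. TG2, TG3 and TG5 lay above every WT mouse, and TG4 lay near the lowest WT mice. The log2 fold change was 0.87 with a standard error of 0.45 (edgeR adjusted p = 0.254). Rasd2 (ENSMUSG00000034472, plus strand, chr8:75213944-75224113) measured 25.9, 8.87, 6.46, 23.7 and 8.11 FPKM in TG1 to TG5 and 7.89, 13.8, 10.6, 18.4 and 13.8 FPKM in WT1 to WT5. TG1 and TG4 were above every WT mouse while the other HSD17B1TG mice were at the low end of the WT range or below it. Its log2 fold change was 0.18 with a standard error of 0.41 (edgeR adjusted p = 0.824), and became -0.13 without TG1 and -0.07 without TG4. Of these paralogs, TG4 was thus the lowest HSD17B1TG mouse for Rasd1 and the second highest for Rasd2.

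Rasl11a and Rasl11b encode small GTPases that, like RERG, lack the membrane anchor of classical RAS, and RASL11A has been placed at ribosomal RNA genes. Rasl11a (ENSMUSG00000029641, plus strand, chr5:146845071-146847726) measured 4.29, 5.55, 1.90, 3.56 and 5.40 FPKM in TG1 to TG5 and 3.18, 3.90, 5.21, 0.927 and 3.62 FPKM in WT1 to WT5. The groups overlapped, and the log2 fold change was 0.29 with a standard error of 0.44 (edgeR adjusted p = 0.716). Rasl11b (ENSMUSG00000049907, plus strand, chr5:74195286-74199481) measured 10.3, 5.21, 3.98, 5.60 and 1.87 FPKM in TG1 to TG5 and 3.99, 8.74, 7.40, 6.32 and 9.01 FPKM in WT1 to WT5. TG1 was the highest and TG5 the lowest of all mice, and the log2 fold change was -0.40 with a standard error of 0.40 (edgeR adjusted p = 0.560).

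Rasl12, another RAS-like GTPase gene, was the least abundant gene in HSD17B1TG and the one with the lowest fold change. Rasl12 (ENSMUSG00000041696, plus strand, chr9:65398506-65414853) measured 0.931, 0.490, 0.461, 0.736 and 0.313 FPKM in TG1 to TG5 and 0.954, 1.31, 1.71, 1.00 and 0.981 FPKM in WT1 to WT5. Every HSD17B1TG mouse lay below every WT mouse, by a gap as small as that between TG1 and WT1. The log2 fold change was -1.03 with a standard error of 0.33, which did not pass (edgeR adjusted p = 0.0795). DESeq2 gave an adjusted p of 0.0216 and called it, and the edgeR fit without TG1 called it at -1.25. An exon of Rasl12 overlaps Slc51b on the opposite strand. The genes share the stretch chr9:65412714-65414853 at the end of Rasl12, and reads within it cannot be told apart without strand.

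Of the 10 genes, 9 passed the filter and were tested. A gene was called where it had more than a 2-fold change at an adjusted p under 0.05 and a mean above 1 FPKM in at least 1 group, which 2.16% of all 16993 genes did as higher and 2.08% as lower. Rerg and Rgl3, chosen by this contrast, lay past these thresholds, and nothing is read from that. Of the 7 other genes tested, edgeR called 0 in either direction. At an unadjusted p under 0.05 edgeR had 1 of the 7 higher (Rgl2) and 1 lower (Rasl12), beside 14.7% and 11.4% of all genes tested. DESeq2 called 0 of the 7 higher and 1 lower (Rasl12), beside 4.17% and 3.07% of the genes to which it gave an adjusted p. The median log2 fold change of the 7 was 0.18, beside 0.00 over all genes tested, with 4 positive and 3 negative. The groups did not overlap in FPKM for 2 of the 7 (Rgl2 and Rasl12) and for 6.69% of all genes, and in log2 CPM for 1 of the 7 (Rasl12) and for 6.67% of all genes.

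**Figure D1:**
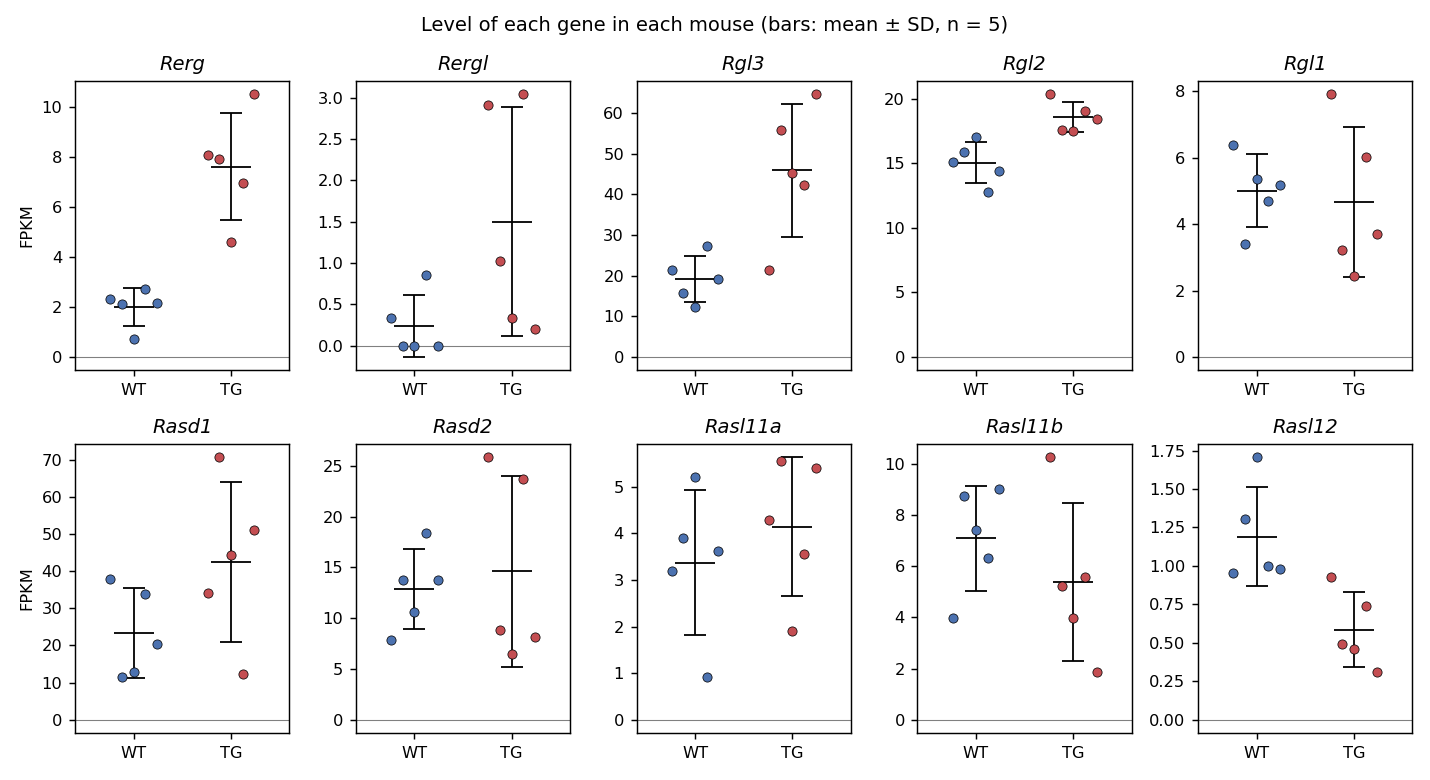
Deposited FPKM (y axis, from 0, its own scale in each panel) of the 10 genes in each WT and HSD17B1TG (TG) mouse, with 1 point per mouse and bars for mean ± SD (n = 5). Rerg and Rgl2 lie higher and Rasl12 lower in every HSD17B1TG mouse than in any WT mouse, and 1 HSD17B1TG mouse (TG1) lies within the WT range for Rgl3.

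**Figure D2:**
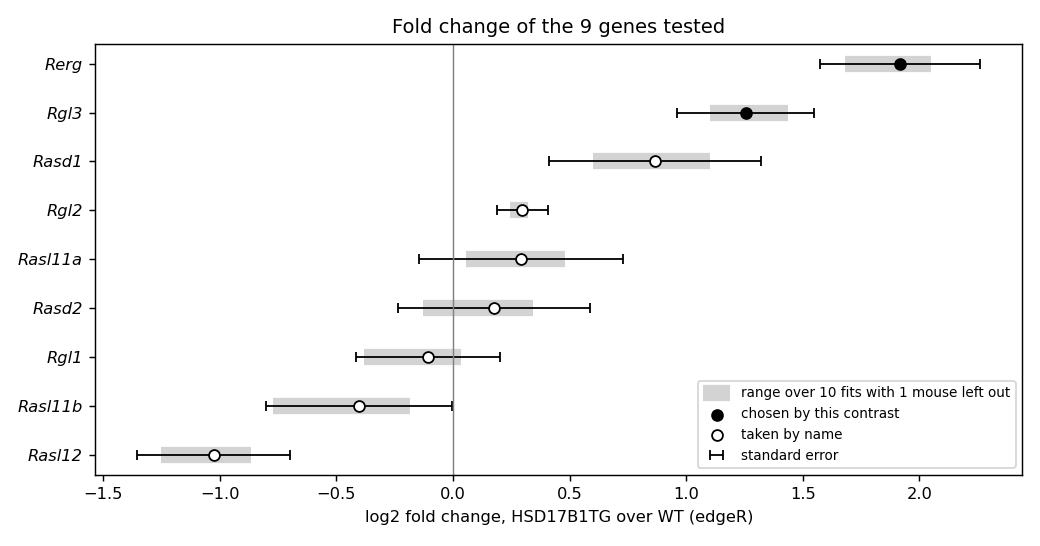
Log2 fold change of HSD17B1TG over WT (x axis, edgeR) for the 9 genes tested, with bars for the standard error and grey bands for the range over 10 fits that each leave out 1 mouse. Rerg (1.92) and Rgl3 (1.26) are filled because they were chosen by this contrast, the 7 genes taken by name are open, and the bands of Rasd2 and Rgl1 cross 0.

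The order of the genes by level, in FPKM, which is per length, was headed by Rasd1, Rgl3 and Rgl2 in both groups, and Rerg stood at the eighth place in WT and at the fifth in HSD17B1TG. In WT the mean ran from Rasd1 (23.3 FPKM) through Rgl3 (19.2), Rgl2 (15.1), Rasd2 (12.9), Rasl11b (7.09), Rgl1 (5.01), Rasl11a (3.37) and Rerg (2.01) to Rasl12 (1.19), with Rergl last. Each gene's WT range overlapped that of the next gene in this order, except between Rasl12 and Rergl. In HSD17B1TG the mean FPKM ran from Rgl3 (45.9) through Rasd1 (42.6), Rgl2 (18.6), Rasd2 (14.6), Rerg (7.62), Rasl11b (5.39), Rgl1 (4.66), Rasl11a (4.14) and Rergl (1.502) to Rasl12 (0.586). There every gene's range overlapped that of its neighbour. Compared within each mouse, Rasd2 lay above Rasl11b and Rasl12 above Rergl in 5 of 5 WT mice, and Rasl11a above Rergl in 5 of 5 HSD17B1TG mice. At every other step the order of the neighbours was turned in at least 1 mouse of the group. The difference in order between the groups was not tested.

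Genes of specific cell types differed between the groups too, and their part in the results above was not tested. In bulk tissue, fewer cells of a type and less RNA per cell cannot be told apart. The lists were chosen with earlier results of these data known, so their counts are descriptions. Over all genes tested edgeR called 2.16% higher and 2.08% lower, and 14.7% and 11.4% had an unadjusted p under 0.05. DESeq2 called 4.17% higher and 3.07% lower of the genes to which it gave an adjusted p. Of 17 tested stroma markers 8 were called lower and 0 higher in HSD17B1TG (edgeR; 12 lower and 0 higher at an unadjusted p under 0.05, and DESeq2 called 11 lower and 0 higher), with a median log2 fold change of -1.37. Their summed level was 876 to 3094 FPKM in HSD17B1TG and 2962 to 3521 FPKM in WT. Of 18 epithelium markers 1 (Prom1) was called higher and 0 lower (edgeR; 12 higher and 0 lower at an unadjusted p under 0.05, and DESeq2 called 6 higher and 0 lower), with a median of 1.24. Their sums were 1033 to 4512 FPKM in HSD17B1TG and 577 to 2154 FPKM in WT. Of 25 tested genes known to be induced by estrogen in the uterus 6 were called higher and 0 lower by edgeR (14 higher and 3 lower at an unadjusted p under 0.05, and 13 and 1 by DESeq2), with a median of 2.28. Their sums were 4769 to 26558 FPKM in HSD17B1TG and 339 to 6508 FPKM in WT, and Lypd8 was at 0 in WT. Of 15 smooth muscle markers edgeR and DESeq2 each called 0, and 0 had an unadjusted p under 0.05. Their sums spread widely in both groups, 1003 to 8153 FPKM in HSD17B1TG and 517 to 6333 FPKM in WT. Of 15 tested leucocyte markers edgeR called 3 higher (Cd68, Laptm5 and Itgam) and 1 lower (Ncr1), with 5 positive and 10 negative and a median of -0.27 (4 higher and 4 lower at an unadjusted p under 0.05, and DESeq2 called 4 higher and 3 lower). Their summed level went the other way from the median, at 165 to 253 FPKM in HSD17B1TG and 110 to 181 FPKM in WT. Of 10 pericyte and 14 endothelium markers edgeR called 0 in either list (0 higher and 4 lower, and 1 higher and 4 lower, at an unadjusted p under 0.05, and DESeq2 called 2 lower in each). Of 8 adipocyte markers 2 were tested and edgeR called 0 (1 higher at an unadjusted p under 0.05 and 1 by DESeq2), with sums of 3.22 to 151 FPKM in HSD17B1TG and 0.441 to 32.6 FPKM in WT. The 6 oviduct and ciliated cell markers gave 0 calls by either tool and 1 higher at an unadjusted p under 0.05.

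Set beside these sums, the levels of Rgl3, Rerg, Rasl12 and Rasl11b each overlapped between the groups. Rgl3 amounted to 1.37 to 2.07 FPKM per 100 FPKM of epithelium markers in HSD17B1TG and 1.27 to 3.34 in WT, and the groups overlapped. The highest WT value is that of WT5, and the other WT mice lay between 1.27 and 1.78, below TG1 at 2.07. Rerg amounted to 0.139 to 0.784 FPKM per 100 FPKM of epithelium markers in HSD17B1TG and 0.105 to 0.372 in WT, and TG1 alone lay above the WT range. Here too the highest WT value is that of WT5. The other WT mice lay between 0.105 and 0.2329, with TG3 in that range and the other HSD17B1TG mice at 0.2331 or higher. Rasl12 amounted to 0.0301 to 0.0424 FPKM per 100 FPKM of stroma markers in HSD17B1TG and 0.0279 to 0.0544 in WT, inside the WT range as well. Rasl11b amounted to 0.214 to 0.332 FPKM per 100 FPKM of stroma markers in HSD17B1TG and 0.128 to 0.295 in WT. For Rasl11b 3 of 5 HSD17B1TG mice (TG1, TG2 and TG4) lay above every WT mouse on this ratio, and the mean was 0.293 against 0.223, the other direction from its fold change of -0.40 on the log2 scale. The epithelium sum holds Elf3, which the study names as estrogen-regulated, with means of 504 FPKM in HSD17B1TG and 98.0 FPKM in WT. That sum is therefore not a measure of cell number alone, and the part of Elf3 in the ratios was not tested. These ratios are descriptions and do not tell in which cells a gene was expressed.

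The genes were then followed from mouse to mouse within the groups. For each mouse the log2 CPM minus the mean of its group was taken, which removes the difference between the groups, and Pearson's r was computed over the 10 mice. All 36 pairs of the 9 tested genes and all 81 pairs of gene and marker list were computed, which is 117 relations, given as descriptions with no p. The points share libraries, depth and tissue composition. Rgl3 followed the epithelium markers with r = 0.91 (0.79 to 0.98 with 1 mouse left out in turn). It also followed the estrogen-induced genes with r = 0.81 (0.76 to 0.88) and ran against the stroma markers with r = -0.85 (-0.93 to -0.70). In each of these relations the sign was the same within HSD17B1TG and within WT.

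Rgl2 went the other way from its paralog. Its r with Rgl3 was -0.77 (-0.85 to -0.71), with the estrogen-induced genes -0.85 (-0.91 to -0.78) and with the leucocyte markers 0.84 (0.70 to 0.93). Its deviations were small, since Rgl2 varied little. Rasl11b and Rasl12 ran with the stroma markers, with r = 0.87 (0.77 to 0.94) and r = 0.80 (0.66 to 0.94). Their r was about as high with the pericyte markers (0.83 and 0.80) and was 0.69 and 0.76 with the endothelium markers. They ran with each other at r = 0.81 (0.68 to 0.89). The r of Rasl12 with Rgl3 was -0.88 (-0.93 to -0.82). Rasl11a ran with the leucocyte markers at r = 0.82 (0.63 to 0.88), Rgl1 with the endothelium markers at r = 0.74 (0.63 to 0.81), and Rasd2 with the smooth muscle markers at r = 0.63 (0.48 to 0.72).

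The relations of Rerg depended on single mice and differed between the groups. Its r with the estrogen-induced genes was 0.72, but this fell to 0.21 without WT3, the mouse with the lowest Rerg level and the lowest sum of estrogen-induced genes. Its r was 0.39 with the epithelium markers (0.15 without WT3 and 0.66 without TG1). With Rgl3 its r was 0.48, which became 0.25 without WT3 and 0.84 without TG1. Within HSD17B1TG the r of Rerg was 0.003 with the estrogen-induced genes, 0.015 with the epithelium markers and 0.17 with Rgl3. Within WT, which includes WT3, these were 0.91, 0.69 and 0.85.

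**Figure D3:**
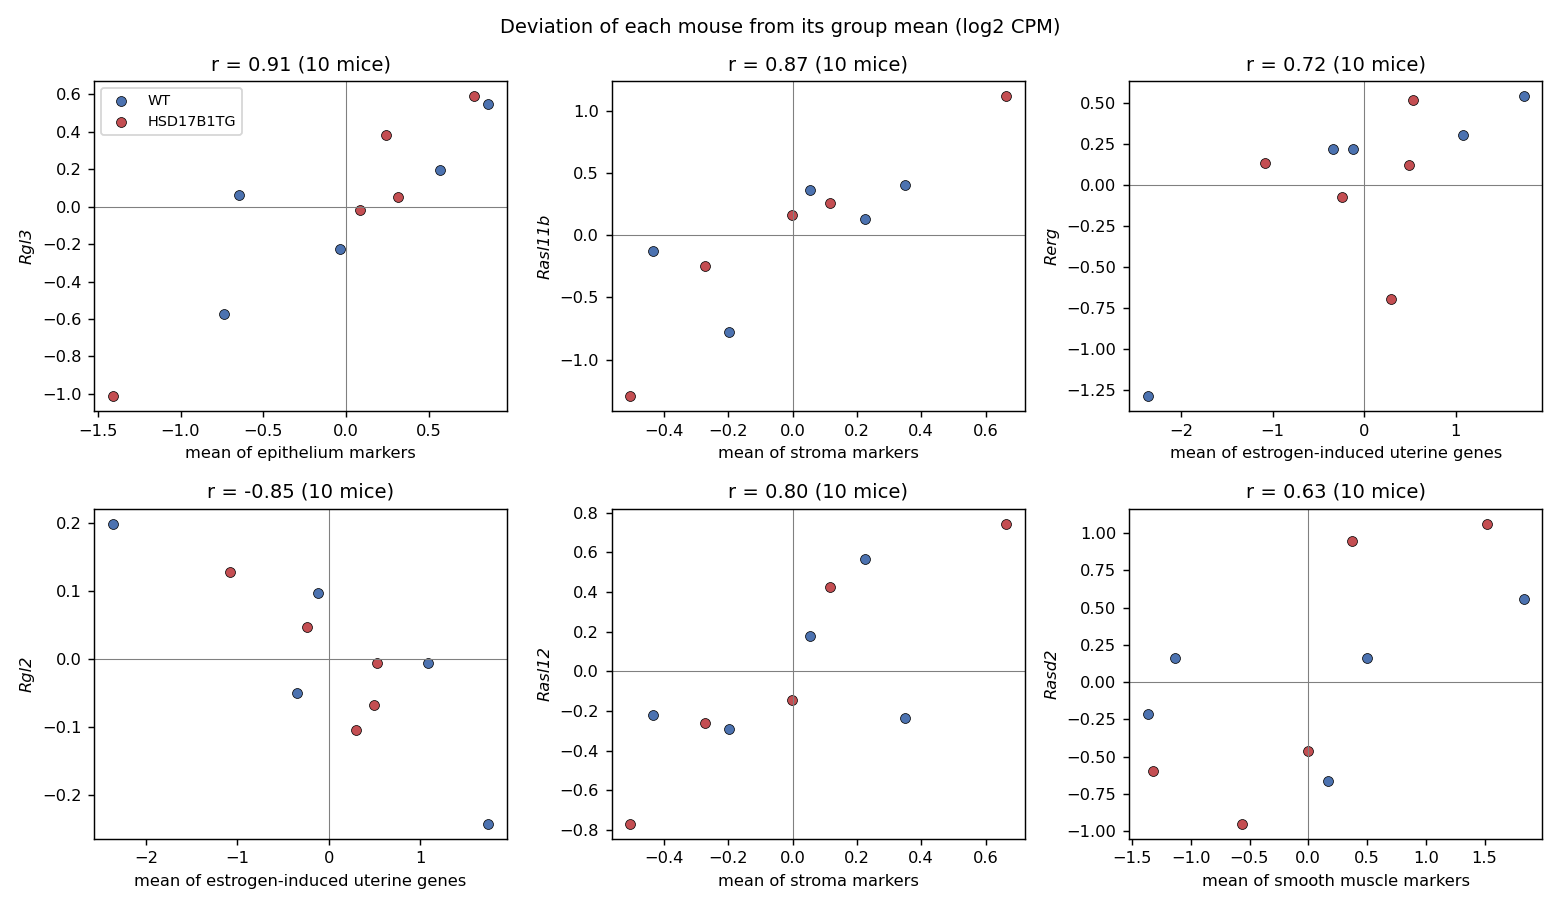
Deviation of each mouse from its group mean in log2 CPM, for a gene (y axis) against the mean of a marker list (x axis), in 6 panels with 10 mice each (blue WT, red HSD17B1TG). Rgl3 is higher in mice with higher epithelium markers (r = 0.91) and Rgl2 is lower in mice with higher estrogen-induced genes (r = -0.85), while in the Rerg panel WT3 is the lone point at the lower left.

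**Figure D4:**
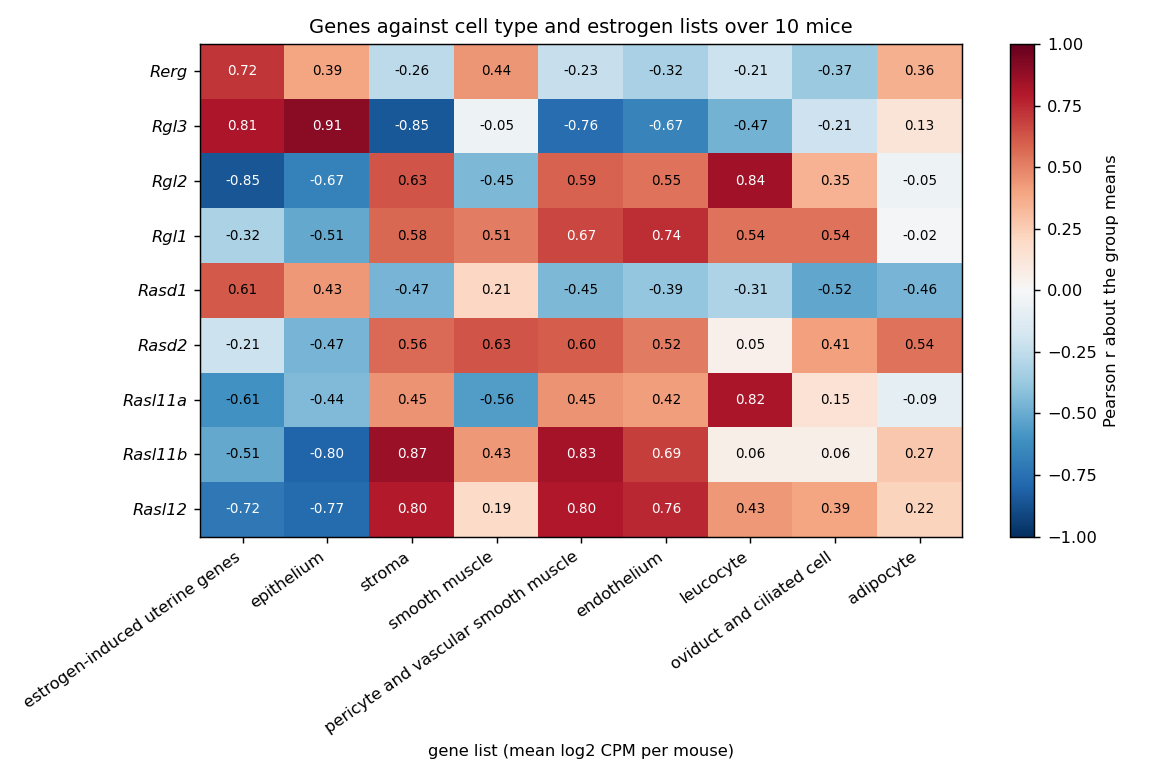
Pearson's r about the group means over 10 mice for the 9 tested genes (rows) against 9 gene lists (columns), with the value printed in each cell and red for positive, blue for negative. Rgl3 and Rasl12 show opposite signs with the estrogen, epithelium, stroma, pericyte and endothelium lists. A value over 10 mice can hide opposite signs within the groups. With the smooth muscle markers, the r of Rgl3 was -0.05, but -0.90 within HSD17B1TG and 0.95 within WT. For Rasl12 it was 0.19, but 0.97 and -0.81, and for Rgl2 -0.45, but 0.71 and -0.98.

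Among 12660 protein-coding genes with a mean above 1 FPKM in either group, those most like Rerg about the group means were Lgals2 (r = 0.92), which encodes a galectin, Rbms1 (r = 0.91), which encodes an RNA-binding protein, and Irak2 (r = 0.91), which encodes a kinase of interleukin 1 and Toll-like receptor signalling. The lowest was Pgrmc2 (r = -0.93), which encodes a membrane haem-binding protein. These values lean on WT3, without which they were 0.75, 0.75, 0.76 and -0.79. Lgals2 was scarce, with means of 1.39 FPKM in HSD17B1TG and 1.29 FPKM in WT, and was at 0 in WT3. Of these genes Irak2 was called higher in HSD17B1TG, with a log2 fold change of 1.25 and a standard error of 0.30 (edgeR adjusted p = 0.0393). It measured 15.8, 16.5, 10.3, 13.7 and 17.1 FPKM in TG1 to TG5 and 6.37, 4.69, 2.71, 9.81 and 7.30 FPKM in WT1 to WT5, with no overlap. Most like Rgl3 were Tirap (r = 0.97), which encodes an adaptor of Toll-like receptors, Tmem50b (r = 0.97), which encodes a membrane protein, and Kcnk1 (r = 0.97), which encodes a potassium leak channel. With 1 mouse left out, the lowest values were 0.95, 0.93 and 0.927. Tmem50b was called higher in HSD17B1TG, with a log2 fold change of 1.19 and a standard error of 0.25 (edgeR adjusted p = 0.0301), and like Rgl3 it was lowest in TG1 among the HSD17B1TG mice (27.2 against 46.3 to 76.6 FPKM). Tirap (adjusted p = 0.106) and Kcnk1 (adjusted p = 0.103) did not pass edgeR's test. As the highest of 12660 values, these r are selected. Gm43912 overlaps Irak2 on the same strand, and Gm43963 and Gm43964 overlap it on the opposite strand. Also on the opposite strand, Cdc42ep1 overlaps Lgals2, Srpr and Gm39318 overlap Tirap, and Gm45875 overlaps Kcnk1. Whether reads were shared in these pairs was not tested.

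Promoter sequences from RefSeq (GRCm38.p6) were found for 8 of the 10 genes, not for Rerg and Rasd1, as 9 windows of 250 bases before to 50 bases after a start. The estrogen response element GGTCANNNTGACC, searched on both strands, was in 0 of the 8 genes' windows and in 0.0700% of all 32851 windows. The AP-1 site TGANTCA was in 0 of 8 and in 7.81% of all windows. The SP1 box GGGCGG, read as CCGCCC on the other strand, was in 6 of the 9 windows, those of 6 of the 8 genes, and in 35.7% of all windows. A match describes letters only, and the lack of one says nothing about binding elsewhere. The 250 bases before the start are shown for Rgl3 (chr9:21989454-21989703, minus strand) and Rasl12 (chr9:65398238-65398487, plus strand), the 2 genes of the set that ran most against each other from mouse to mouse, 5′ to 3′ with SP1 boxes in capitals.
Rgl3: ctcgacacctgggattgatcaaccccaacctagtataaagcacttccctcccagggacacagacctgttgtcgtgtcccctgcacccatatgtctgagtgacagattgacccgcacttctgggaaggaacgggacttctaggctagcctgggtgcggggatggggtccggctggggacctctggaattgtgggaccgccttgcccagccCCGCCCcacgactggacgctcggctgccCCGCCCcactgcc
Rasl12: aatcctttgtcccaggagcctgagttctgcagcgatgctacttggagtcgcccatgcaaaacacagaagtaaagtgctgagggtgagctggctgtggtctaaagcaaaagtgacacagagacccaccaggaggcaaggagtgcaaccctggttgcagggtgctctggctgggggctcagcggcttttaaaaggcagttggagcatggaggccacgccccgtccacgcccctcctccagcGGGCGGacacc
Rgl3 has 2 boxes, whose first bases lie 41 and 13 bases before the start, and Rasl12 has 1 box at 11 bases before it. Both windows were richer in G and C than the median window (64.7% and 60.0% against 52.7%), whereas that of Rergl was poorer (34.7%).

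Among the other genes of the RAS pathway, single genes passed the test in either direction. Of 117 genes in 5 lists, 113 were tested, 1 was called higher and 3 lower, which together is 3.54% of those tested, beside 4.24% of all genes called in either direction. Their median log2 fold change was 0.16, beside 0.00 over all genes tested, with 72 positive and 41 negative. At an unadjusted p under 0.05 edgeR had 14.7% of all genes tested higher and 11.4% lower. The lists below are to be read beside these shares. Of 25 tested RAS family GTPase genes 0 were called higher and 1 lower (edgeR; 4 higher and 1 lower at an unadjusted p under 0.05, and DESeq2 called 0 and 1). That gene was Mras, which encodes a RAS-like GTPase that acts with SHOC2 on RAF kinases. Mras measured 4.63, 6.001, 5.79, 5.03 and 4.77 FPKM in TG1 to TG5 and 11.02, 17.2, 10.5, 6.22 and 10.1 FPKM in WT1 to WT5, with no overlap. Its log2 fold change was -1.08 with a standard error of 0.23 (edgeR adjusted p = 0.0314), and the call held in 3 of 10 fits with 1 mouse left out.

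Among the regulators, 0 of 18 exchange factor genes and 0 of 20 genes listed under GTPase-activating proteins, with the related Iqgap1 among them, were called by edgeR. At an unadjusted p under 0.05 these lists held 3 higher and 1 lower, and 5 higher and 3 lower, and DESeq2 called 0 exchange factor genes and 1 GTPase-activating protein gene (higher). The exchange factor gene with the smallest p was Rapgefl1, at 10.02 ± 4.92 FPKM in HSD17B1TG and 3.94 ± 2.85 FPKM in WT (SD, n = 5 each; edgeR adjusted p = 0.114). The corresponding GTPase-activating protein gene was Sipa1, which encodes an inactivator of RAP GTPases. Sipa1 measured 11.6 ± 2.91 FPKM in HSD17B1TG and 21.97 ± 6.32 FPKM in WT (SD, n = 5 each), with an edgeR adjusted p of 0.0466 but a log2 fold change of -0.92, which is short of the fold threshold.

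Among 31 effector genes 0 were called higher and 1 lower (edgeR; 8 higher and 3 lower at an unadjusted p under 0.05, and DESeq2 called 1 and 2). The called gene was Grb10, an imprinted gene for an adaptor of insulin and IGF receptors. Grb10 measured 8.69, 6.20, 6.84, 8.71 and 6.62 FPKM in TG1 to TG5 and 21.4, 21.3, 32.7, 13.1 and 22.7 FPKM in WT1 to WT5. The groups did not overlap, the log2 fold change was -1.59 with a standard error of 0.23 (edgeR adjusted p = 0.0153), and the call held in 10 of 10 fits with 1 mouse left out. Among 19 tested genes of MEK, ERK, their scaffolds and feedback inhibitors, 1 was called higher and 1 lower (edgeR; 4 higher and 2 lower at an unadjusted p under 0.05, and DESeq2 called 2 and 1). Ksr1, which encodes a scaffold that brings RAF, MEK and ERK together, was at 4.13 ± 0.405 FPKM in HSD17B1TG and 9.92 ± 4.68 FPKM in WT (SD, n = 5 each). Its log2 fold change was -1.26 with a standard error of 0.28 (edgeR adjusted p = 0.0339), and WT3 at 4.76 FPKM lay next to the highest HSD17B1TG mouse at 4.70. Pea15a, which encodes a protein that holds ERK in the cytoplasm, was at 129 ± 29.8 FPKM in HSD17B1TG and 61.2 ± 22.1 FPKM in WT (SD, n = 5 each). Its log2 fold change was 1.07 with a standard error of 0.27 (edgeR adjusted p = 0.0449), with no overlap, by the gap between 86.4 FPKM in TG1 and 84.8 FPKM in WT4. The calls of Ksr1 and Pea15a held in 4 and 2 of 10 fits with 1 mouse left out. Dcaf8 overlaps Pea15a, and Gm11201 overlaps Ksr1, each on the opposite strand.

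**Figure D5:**
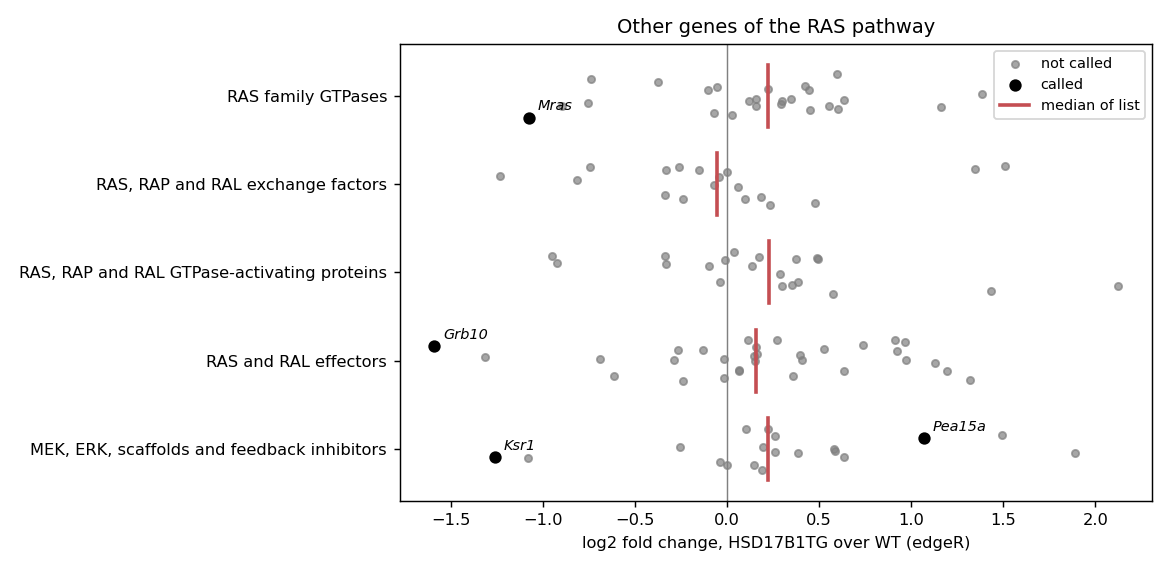
Log2 fold change of HSD17B1TG over WT (x axis, edgeR) for 113 other tested genes of the RAS pathway in 5 lists (rows), with 1 point per gene spread vertically at random, black and named where called, and a red line at each list's median. The medians lie between -0.06 and 0.23, and Mras, Grb10, Ksr1 and Pea15a are the called genes.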

How the data were processed

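The authors sequenced paired-end uterine RNA libraries and aligned the reads by HISAT2 2.0.5 to GRCm38 under an Ensembl annotation, per the study's methods and the submitters' processing notes. Neither the counting program nor a strand setting is given in the sources used here. The authors deposited 1 table that holds, per gene and mouse, the unnormalised count and the FPKM. The deposited FPKM used a number of fragments proportional to the DESeq2 size factor, which ran from 0.854 to 1.16 times the library total. The deposited fold changes and p-values of the authors' own comparison, the size-factor-scaled counts and the enrichment tables were not used.

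The test was that of edgeR 4.0.16, run in R 4.3.3 (TMM, filterByExpr, quasi-likelihood test, 2 groups of 5, Benjamini-Hochberg over all genes tested). A called gene had more than a 2-fold change at an adjusted p under 0.05, with at least 1 group at a mean above 1 FPKM. The standard error is the log2 fold change divided by the square root of F. Log2 CPM used a prior count of 2. The fit was tested on simulated counts. The labels name no batch, litter or date. Alternatives were DESeq2 1.42.0, RLE size factors, other filters (every gene with a count, or CPM above 1 in 5 mice), limma 3.58.1 on log2(FPKM + 1) with mean FPKM above 0.1, adjusted p alone, and each mouse left out in turn.

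The members and all gene lists were chosen with earlier results of these data known. Named genes were the 10 members and, per RAS pathway list, up to 3 called genes with the smallest p in each direction, or the 1 gene with the smallest p where none was called. Also named were the 3 genes most like Rerg and Rgl3 and the 1 least like each. RefSeq promoter windows on GRCm38.p6 were searched for motifs. Gene coordinates equal GENCODE M21 for 28478 of 29268 genes. Library totals of 14817228 to 23271988 counts put 3 counts at 0.129 to 0.202 CPM, which covers counting error only. The share of mitochondrial counts was 1.94% to 7.57% in HSD17B1TG and 2.58% to 3.37% in WT.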

Additional observations from a re-analysis of the deposited data

How the results depend on the processing

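Of 135 fold changes of the 9 tested genes under alternatives, 118 kept their direction and side of the threshold, 12 lost and 2 gained a call, and 3 changed sign. The sign changed for Rgl1 without TG3 (0.034) and for Rasd2 without TG1 or TG4 (-0.13 and -0.07), neither of them called. With each mouse left out in turn, the fold change ran from -0.38 to 0.034 for Rgl1 and from -0.13 to 0.34 for Rasd2. Rerg and Rgl3 lay past the thresholds by their choice, so the count of members called (2 higher and 0 lower, beside 2.16% and 2.08% of all genes) is no result. Limma on log2(FPKM + 1) called 1 higher, DESeq2 called 1 lower, and with 1 mouse left out 0 to 2 were called higher and 0 to 1 lower. Rerg was not called without TG2, TG5, WT2 or WT5, and Rgl3 was called only without TG1, TG3 or WT4. Over all genes 367 were called higher and 354 lower. DESeq2 called 906 and 666, adjusted p alone gave 568 higher, limma called 187 lower, and with 1 mouse left out the counts ran from 38 to 888 and from 27 to 666. The fits without WT4 gave the highest of these counts, and the lowest came without TG5 (both directions) and, for higher genes, also without WT2. Among the other RAS pathway genes 1 was called higher and 3 lower. DESeq2 called 4 higher, limma 3 and adjusted p alone 3, the fit of every gene with a count 0, and with 1 mouse left out 0 to 8. Limma called 1 lower, and with 1 mouse left out 1 to 6. The cause of these changes was not tested. No paired analysis was possible because the labels explain no number in the titles and the groups have only 1 trailing number in common. The low counts of Rergl limit it to a description.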

Other observations

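The gene that ran most against Rgl3 about the group means, of 12660 compared, was Ccdc159, which encodes a coiled-coil protein and lies on the same chromosome, 32838 bases away (r = -0.98, -0.98 to -0.96 with 1 mouse left out in turn). Ccdc159 measured 3.17, 1.55, 2.02, 1.73 and 1.24 FPKM in TG1 to TG5 and 2.65, 3.06, 3.98, 1.84 and 2.62 FPKM in WT1 to WT5. TG1, the HSD17B1TG mouse with the lowest Rgl3, held its group's highest Ccdc159 level, and WT4, the WT mouse with the highest Rgl3, held its group's lowest. The groups overlapped and the log2 fold change was -0.55 with a standard error of 0.31 (edgeR adjusted p = 0.288). Ccdc159 overlaps Tmem205 on the opposite strand, and with this few FPKM its reads may not be told apart from those of that gene.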
